A study of Mus musculus with 12 samples.

Results

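The aminoacyl-tRNA synthetases are the enzymes that load each amino acid onto its tRNA, and their mRNAs were followed in mouse spleen CD8+ T cells before and after stimulation. The 36 genes were chosen by name, as 20 enzymes of the cytosol and 16 of the mitochondrion whose symbols end in 2. All 36 were found among the 56691 gene IDs of the count table, and all 36 had enough counts to be tested among 15935 genes. The 12 libraries formed 4 groups of 3. These were naive CD8+ T cells with Senp1 labelled WT or CKO (taken here as conditional knockout), either unstimulated (0 h) or stimulated for 48 h with anti-CD3 at 5 µg/ml and anti-CD28 at 1 µg/ml. The antibodies act on the T-cell receptor complex and on a costimulatory receptor, and the product of Senp1 is an enzyme that cuts the small protein SUMO off the proteins it is joined to. The sources used here do not name the Cre driver, the deleted part of Senp1, or the age and strain of the mice. Whether each library is a different animal is not stated, so the p-values below rest on the spread among these libraries, which may be technical.

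A synthetase recognises one amino acid and its tRNAs, joins them at the cost of ATP, and so sets the supply of charged tRNA for the ribosome. Cytosolic and mitochondrial ribosomes draw on separate sets of tRNA, and most amino acids have a separate nuclear gene for the enzyme of each compartment, while Gars and Kars each make both forms. Uncharged tRNA is sensed by the kinase GCN2 (gene Eif2ak4), which leads to translation of the transcription factor ATF4, and several cytosolic synthetase genes are known targets of ATF4. T cells that leave the resting state grow and divide, which requires much protein synthesis.

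Library totals ran from 15900529 to 22427151 counts, and each of the 36 genes had at least 62 counts in every library. The unit of level is CPM, the count relative to a library total adjusted with TMM factors and set to a common size, so levels are shares of a library's mRNA, and the amount of mRNA per cell was not measured. Changes are log2 differences with their standard error (SE) from edgeR's quasi-likelihood test. A gene was called at a Benjamini-Hochberg adjusted p under 0.05 over all tested genes, written below as edgeR adjusted p. Senp1 itself differed between genotypes without overlap of libraries at either time, and CKO held 69.1% of the WT level at 0 h (edgeR adjusted p = 6.26e-05) and 43.5% at 48 h (edgeR adjusted p = 5.43e-10). The 10 T-cell and CD8 markers were present in every group, with a summed level of 4821 to 5296 CPM at 0 h and 2747 to 3354 CPM at 48 h. The 15 B-cell markers were also present, none at 0 counts. Their sum was 1705 to 3060 CPM in WT at 0 h, 1259 to 1450 CPM in CKO at 0 h and 379 to 503 CPM at 48 h, and WT replicate 1 held the highest value at each time. Of these 15 markers, 15 fell with stimulation in WT and 14 in CKO. The sums of 11 myeloid markers (91.4 to 293.8 CPM) were lower than those of the B-cell markers in every group. So were the sums of 8 neutrophil markers (at most 9.84 CPM) and 9 erythroid and platelet markers (at most 37.2 CPM). The 5 CD4 T-cell markers summed to 363 to 1007 CPM. In WT, Ctla4 held a mean of 294.5 CPM of their 383.7 at 0 h and 691 of 774.5 at 48 h. Cd4 itself stood at means of 55.5 and 54.0 CPM. The 8 natural killer cell markers summed to 324 to 493 CPM. With stimulation 6 of these 8 were called lower and 1 higher in each genotype. Eomes and Nkg7 held means of 238.8 and 182.7 CPM of their 454.6 in WT at 48 h. In bulk RNA, fewer cells of a type and less RNA per cell cannot be told apart, and the part of other cells in the differences below was not tested.

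After stimulation the mRNA of all 20 cytosolic synthetases was higher in both genotypes, while the mitochondrial enzymes were divided. In WT, 20 of 20 cytosolic genes were called higher at 48 h, against 38.7% of all tested genes, and the median change was 1.63 on the log2 scale, against a median of -0.03 over all genes. In CKO, again 20 of 20 were higher, against 38.5% of all tested genes, with a median of 1.48 against -0.04. At least a doubling (log2 change of 1 or more) was reached by 18 of the 20 in each genotype, against 22.5% of all tested genes in WT and 22.3% in CKO. For each of the 20, every stimulated library stood above every unstimulated library of its genotype, an order found for 39.6% of all tested genes in WT and 40.1% in CKO. Added up, the 20 cytosolic mRNAs went from 1692 to 1799 CPM in the WT 0 h libraries to 4694 to 4880 CPM at 48 h. The CKO libraries went from 1612 to 1748 CPM to 4497 to 4668 CPM. In WT this was a rise from 0.174% to 0.479% of all counts. The 20 calls held in both genotypes under all 21 alternative analyses, where the largest edgeR or DESeq2 adjusted p was 0.000159.

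The largest cytosolic changes in WT were those of Aars and Iars, and the 7 largest were those of Aars, Iars, Yars, Gars, Tars, Wars and Mars1. In CKO the 7 largest held Kars in place of Tars, which followed Rars there. Aars, the alanine enzyme, stood at 63.1, 56.6 and 57.8 CPM in the WT 0 h libraries and at 264, 238 and 251 CPM at 48 h. In CKO it stood at 38.1, 47.4 and 51.2 CPM and then at 213, 209.6 and 200.5 CPM. The stimulated libraries of both genotypes lay far above the unstimulated ones, and the CKO libraries lay below the WT libraries at each time. The change was 2.09 ± 0.08 in WT (SE, 3 libraries per group, edgeR adjusted p = 1.74e-14) and 2.19 ± 0.09 in CKO (edgeR adjusted p = 1.12e-14). Iars, the isoleucine enzyme, went from 74.8, 81.2 and 79.7 CPM to 312.5, 328 and 322 CPM in WT. In CKO it went from 74.9, 72.1 and 78.3 CPM to 308, 306 and 319.7 CPM. The values of both genotypes overlapped at 0 h and at 48 h, and the changes were 2.03 ± 0.06 (WT) and 2.05 ± 0.06 (CKO), at edgeR adjusted p = 1.02e-16 and 1.03e-16.

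Yars, the tyrosine enzyme, rose from 37.6, 39.5 and 34.7 CPM to 149, 132 and 137 CPM in WT, and from 35.1, 37.7 and 41.7 CPM to 173, 159 and 164 CPM in CKO. At 48 h its 3 CKO libraries were above its 3 WT libraries, while at 0 h the genotypes overlapped. Its changes were 1.90 ± 0.08 for WT and 2.12 ± 0.08 for CKO (edgeR adjusted p = 1.25e-14 and 2.71e-15). Gars, the glycine enzyme of both compartments, went from 112, 110.4 and 109 CPM to 418, 364 and 382 CPM in WT, and from 97.7, 115 and 104 CPM to 369, 355 and 367 CPM in CKO. Its changes of 1.81 ± 0.07 and 1.78 ± 0.07 were alike within their errors. Tars, the threonine enzyme, went from 63.8, 58.9 and 59.4 CPM to 209.9, 191 and 206 CPM in WT, and from 57.9, 62.2 and 62.5 CPM to 184, 174 and 187 CPM in CKO. Its changes were 1.74 ± 0.06 and 1.58 ± 0.06, and its CKO libraries were all below its WT libraries at 48 h.

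**Figure D1:**
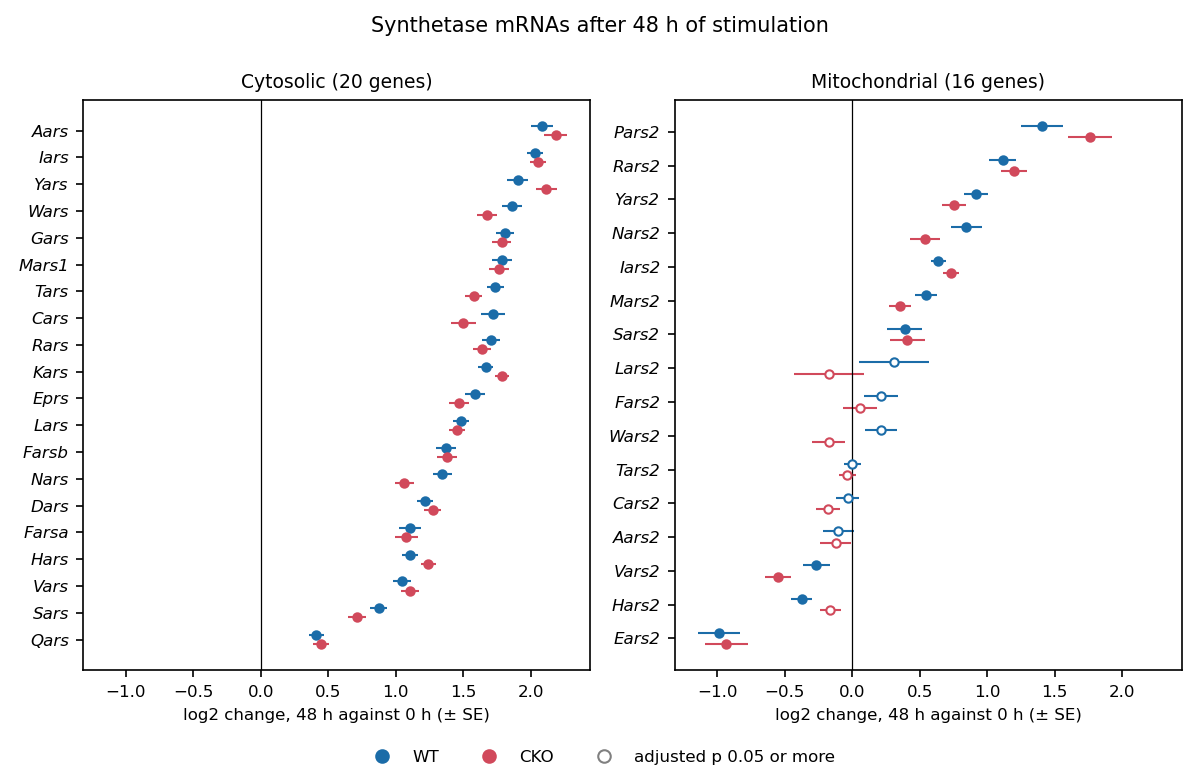
Change of each synthetase mRNA between 0 h and 48 h on the log2 scale (points, with SE bars), for 20 cytosolic genes on the left and 16 mitochondrial genes on the right, WT in blue and CKO in red, with open points at an edgeR adjusted p of 0.05 or more. The cytosolic points all lie to the right of 0, between 0.41 and 2.19, and the mitochondrial points lie on both sides of it, between -0.99 and 1.76.

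Aars, Iars, Yars, Gars and Tars, and none of the other cytosolic or mitochondrial members with a promoter sequence, held the core letters of the amino acid response element, the sequence that ATF4 binds with a partner. Promoters of 250 bases before to 50 bases after the gene's start were found for 27 of the 36 members (13 cytosolic, 14 mitochondrial) in a RefSeq table of build GRCm38.p6, and were searched for TGATGNAA on both strands. It was present in a promoter of 5 of 13 cytosolic genes (38.5%) and of 0 of 14 mitochondrial genes. Of all 32851 promoters, 3.97% held it. A member was counted if any of its promoters held the letters, whereas the share of all is per promoter, so the measures are not alike. For each of the 5 genes the match nearest the start site is shown with 11 bases on each side, on the gene's own strand and with the match in capitals. A match on the opposite strand appears as its reverse complement, and the position in bases from the start site is that of the first capital.
Aars, chr8:111033840-111033869, position 10: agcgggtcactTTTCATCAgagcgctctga
Iars, chr13:49682126-49682155, position 8: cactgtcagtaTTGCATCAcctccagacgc
Yars, chr4:129189895-129189924, position 4: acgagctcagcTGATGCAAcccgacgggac
Gars, chr6:55037960-55037989, position -30: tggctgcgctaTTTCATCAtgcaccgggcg
Tars, chr15:11399655-11399684, position -15: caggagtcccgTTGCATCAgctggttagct
Of the 5 matches shown, the Yars match is the 1 in the forward direction, and Tars is the 1 gene on the minus strand. They lie within 30 bases of the start site.

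In WT the 5 genes with the element changed by 1.74 to 2.09 (median 1.90), and the 8 cytosolic genes whose promoter lacked these letters changed by 0.41 to 1.79 (median 1.30). In CKO the ranges were 1.58 to 2.19 (median 2.05) and 0.45 to 1.79 (median 1.33). The 2 ranges overlapped in both genotypes. In WT Mars1, without the element, exceeded Tars, and in CKO Kars and Mars1, both without it, exceeded Tars, and Kars also exceeded Gars. Genes with the element made up 5 of the 7 largest cytosolic changes in WT and 4 of 7 in CKO. That ranking covers all 20 cytosolic genes, of which only 13 could be searched. Wars, among the 7 in both genotypes, had no promoter sequence, so whether it holds the element is not known. No test was made of the difference between so few genes. A match is a description of the letters in the window and no evidence of binding, and a promoter without a match may hold the element in another spelling or place. The E-box CACGTG reads the same on both strands and is bound by MYC and related factors. It was found in a promoter of 4 of 13 cytosolic genes (Aars, Farsb, Iars and Tars) and of 1 of 14 mitochondrial genes (Ears2). Counted per promoter and not per gene, 7.15% of all promoters held it. The 4 cytosolic genes with the E-box had a median change of 1.884 in WT and 1.815 in CKO. The 9 whose promoter lacked it had medians of 1.585 and 1.468, and the ranges overlapped in both genotypes. Aars, Iars and Tars held both motifs and Farsb the E-box alone, so these comparisons do not separate the motifs. The part of each motif in the changes was not tested. The E-boxes of Iars and Ears2 are shown as a pair picked because these genes changed in opposite directions, which is no test of the motif.
Iars, chr13:49682050-49682077, position -69: accaatcgccaCACGTGttgtttgtagg
Ears2, chr7:122067049-122067076, position 22: gcgaaggagccCACGTGtgtgtttctag
Both windows hold the same capitals, and the changes of the 2 genes in WT were 2.03 and -0.99.

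**Figure D2:**
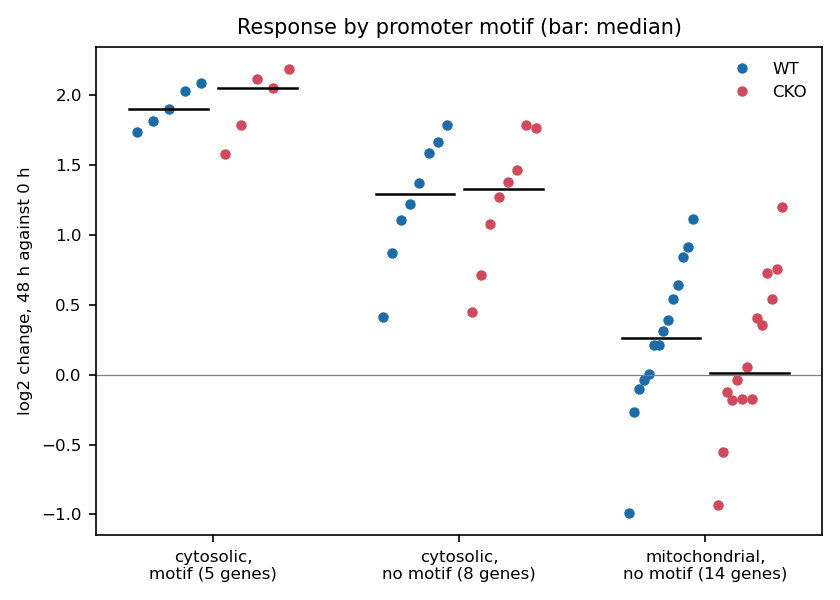
Log2 change between 0 h and 48 h of the 27 synthetase genes with a promoter sequence (1 point per gene, horizontal bar: median), WT in blue and CKO in red, for cytosolic genes with the amino acid response element (5), cytosolic genes without it (8) and mitochondrial genes without it (14). The WT medians are 1.90, 1.30 and 0.26.

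The cytosolic enzymes can be split by whether they sit in the multisynthetase complex, an assembly of 8 synthetase proteins on 3 scaffold proteins. The 8 enzymes of the complex changed by 0.41 to 2.03 in WT (median 1.63) and by 0.45 to 2.05 in CKO (median 1.55). The 12 enzymes outside it changed by 0.87 to 2.09 in WT (median 1.55) and by 0.71 to 2.19 in CKO (median 1.44). The upper ends were close, the lower end of the complex was that of Qars (glutamine), and 8 of 8 and 12 of 12 were called higher in each genotype. Within the complex, Iars was followed by Mars1 (methionine) at 1.79 in WT and 1.77 in CKO, Rars (arginine) at 1.71 and 1.64, and Kars (lysine) at 1.67 and 1.79. Eprs, which joins the glutamate and proline enzymes in a single protein, changed by 1.59 and 1.47, Lars (leucine) by 1.48 and 1.45, and Dars (aspartate) by 1.22 and 1.27.

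Qars, the glutamine enzyme of the complex, had the smallest change of the 20. It went from 119.5, 124 and 113.5 CPM to 164, 157 and 155 CPM in WT, and from 112, 110.3 and 109 CPM to 149, 155 and 146 CPM in CKO. The stimulated libraries were above the unstimulated ones without overlap, but the rise was 0.41 ± 0.06 for WT and 0.45 ± 0.06 for CKO (edgeR adjusted p = 1.8e-06 and 6.59e-07), or 1.33-fold and 1.36-fold. The 3 scaffold genes, which are not synthetases, all rose. Aimp1 went from 45.6 to 89.2 CPM in WT (0.97 ± 0.09). Aimp2, the scaffold on which the complex is assembled, went from 10.3 to 46.3 CPM (2.16 ± 0.12), and Eef1e1 from 27.1 to 116.5 CPM (2.10 ± 0.08). In CKO their changes were 0.88, 2.01 and 2.22.

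Outside the complex, Wars (tryptophan) rose by 1.86 ± 0.07 in WT and 1.67 ± 0.08 in CKO, and Cars (cysteine) by 1.72 ± 0.09 and 1.5 ± 0.09. Phenylalanine is loaded by an enzyme of 2 kinds of subunit, Farsa and Farsb, and these changed by 1.11 ± 0.08 and 1.37 ± 0.07 in WT and by 1.08 and 1.38 in CKO. Nars (asparagine) rose by 1.35 and 1.06, Hars (histidine) by 1.11 and 1.24, and Vars (valine) by 1.05 and 1.1. Sars, the serine enzyme, was next to Qars at the low end with 0.87 ± 0.07 and 0.71 ± 0.07. By structural class, the median over the 9 cytosolic genes of class I was 1.72 in WT and 1.64 in CKO, and over the 10 genes of class II it was 1.36 and 1.33, with Eprs, which holds a domain of each class, left out.

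**Figure D3:**
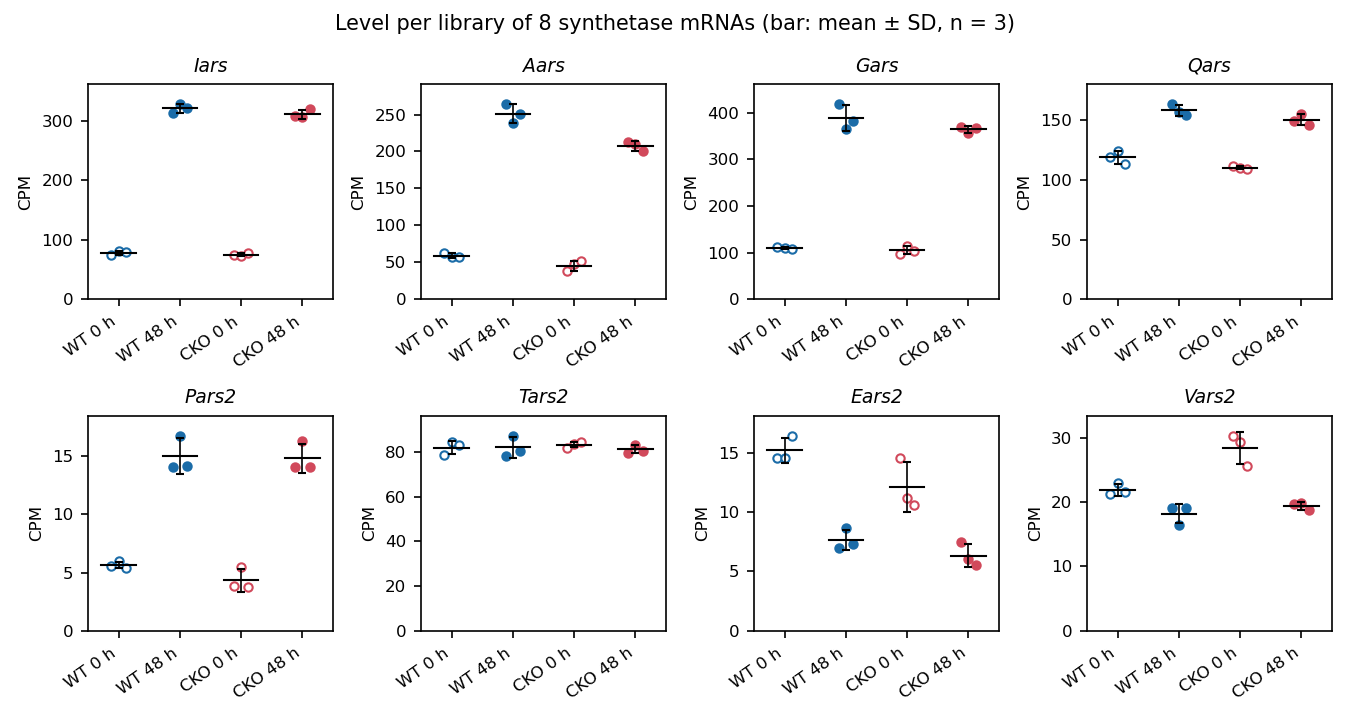
CPM of 8 synthetase mRNAs in each of the 12 libraries (points) with group mean and SD (bars, n = 3), with open points at 0 h, filled points at 48 h, WT in blue and CKO in red, and each vertical axis starting at 0. Iars, Aars and Gars lie far higher at 48 h, Qars slightly higher, Tars2 at 78.3 to 87.4 CPM throughout, and Ears2 lower at 48 h.

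Of the 16 mitochondrial synthetases, 7 were called higher at 48 h in WT and 3 lower, against 38.7% and 39.1% of all tested genes. In CKO 7 were higher and 2 lower, against 38.5% and 39.2%. The share called higher was thus close to that of all genes in both genotypes, and the median changes were 0.26 in WT and 0.01 in CKO. The same 7 genes were higher in both genotypes, and Ears2 and Vars2 were lower in both. The sum of the 16 mRNAs went from 470.7 to 535 CPM in WT at 0 h to 620.3 to 633.4 CPM at 48 h, and from 510.7 to 552.7 CPM to 610.1 to 629.9 CPM in CKO. The cytosolic genes made up 77.6% ± 1.51 (SD, n = 3) of the summed level of the 36 in WT at 0 h and 88.5% ± 0.195 at 48 h, and 76.3% ± 1.61 and 88.1% ± 0.33 in CKO.

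Pars2, the mitochondrial proline enzyme, rose most. It went from 5.61, 5.97 and 5.41 CPM to 14.1, 16.8 and 14.2 CPM in WT, and from 3.81, 5.5 and 3.77 CPM to 14.1, 16.3 and 14.1 CPM in CKO. The groups did not overlap, and the changes were 1.40 ± 0.15 and 1.76 ± 0.16 (edgeR adjusted p = 8.13e-08 and 5.11e-09). Rars2 (arginine) rose from 22.8, 21.6 and 25.9 CPM to 49.7, 49.6 and 52.5 CPM in WT, a change of 1.11 ± 0.10, and by 1.2 ± 0.10 in CKO. Yars2 (tyrosine) rose by 0.91 and 0.75, Nars2 (asparagine) by 0.84 and 0.54, and Iars2 (isoleucine) by 0.64 and 0.73. Mars2 (methionine) rose by 0.54 and 0.35 and Sars2 (serine) by 0.39 and 0.41. The Sars2 libraries overlapped between times in CKO, and without CKO 0 h replicate 1 its CKO change was 0.31 (edgeR adjusted p = 0.0517).

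Ears2, the mitochondrial glutamate enzyme, was the member that fell most. It stood at 14.6, 14.6 and 16.5 CPM in WT at 0 h and at 7.01, 8.62 and 7.34 CPM at 48 h, and in CKO at 14.6, 11.2 and 10.6 CPM and then 7.44, 6.03 and 5.56 CPM. Every stimulated library was below every unstimulated one, and the changes were -0.99 ± 0.15 for WT and -0.93 ± 0.16 for CKO (edgeR adjusted p = 8.96e-06 and 2.69e-05). Vars2, the mitochondrial valine enzyme, fell from 21.2, 23.0 and 21.5 CPM to 19.0, 16.5 and 19.1 CPM in WT, and from 30.3, 29.3 and 25.6 CPM to 19.7, 19.8 and 18.7 CPM in CKO. Its changes were -0.27 ± 0.10 in WT (edgeR adjusted p = 0.0192) and -0.55 ± 0.10 in CKO (edgeR adjusted p = 4.31e-05). The WT call was lost without WT 0 h replicate 2 (edgeR adjusted p = 0.0771), without WT 48 h replicate 2 (0.128) and with no count filter (0.14). Hars2 (histidine) fell by 0.38 ± 0.08 in WT (edgeR adjusted p = 0.000173), from 47.2, 55.8 and 54.0 CPM to 38.8, 40.3 and 41.9 CPM. In CKO its change was -0.16 ± 0.08 (edgeR adjusted p = 0.0577), and the difference between the genotypes' responses did not pass the test (0.21 ± 0.11, edgeR adjusted p = 0.434).

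The other 6 mitochondrial genes were not called in either genotype. Tars2 (threonine), at 78.6, 84.5 and 83.0 CPM in WT at 0 h and 78.3, 87.4 and 80.6 CPM at 48 h, had a change of 0.00 ± 0.06, and of -0.04 ± 0.06 in CKO. Aars2 (alanine) had changes of -0.10 and -0.12, Cars2 (cysteine) of -0.04 and -0.18, Fars2 (phenylalanine) of 0.21 and 0.06, and Wars2 (tryptophan) of 0.21 and -0.18. Lars2 (leucine) was the most variable member, at 45.1, 79.6 and 44.8 CPM in WT and 90.4, 55.7 and 73.0 CPM in CKO at 0 h, so that its changes of 0.31 and -0.17 had an SE of 0.26 each. Without WT 0 h replicate 2, the library at 79.6 CPM, the Lars2 change in WT was 0.65 (edgeR adjusted p = 0.0142). The Wars2 change in WT was 0.31 without WT 0 h replicate 1 (edgeR adjusted p = 0.0376). It was 0.36 without both WT libraries numbered 1 (edgeR adjusted p = 0.0247).

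Exons of some members overlap those of another gene in GENCODE M21, and the strand setting of the counting is not stated. Hars and Hars2 lie head to head on opposite strands with 195 shared exon bases, which are 8.0% of Hars and 4.6% of Hars2, so reads of these bases could have been counted at either gene. Iars2 shares 2034 bases (22.9% of its exons) with Rab3gap2 on the other strand, Fars2 501 bases with Nrn1, Cars2 422 with Naxd and Farsb 248 with Sgpp2. Ears2 shares 89 bases (1.7% of its exons) with Ubfd1 on the other strand. Over the 12 libraries Ubfd1 had 13944 counts and Ears2 2230. Aars shares 1326 bases with Exosc6 on the same strand, and Exosc6 had 0 counts in all 12 libraries. Iars also has 377 runs of 50 bases in common with the gene Gm4849. The values of these genes are uncertain to that extent.

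For 13 amino acids the set holds both a cytosolic and a mitochondrial enzyme, and the mRNA ratio between them rose with stimulation for every one of the 13. The ratio of CPM was taken within each library, so that scaling between libraries cancels. Times were exchanged within genotype in an exact two-sided permutation test over samples with 400 arrangements, whose smallest possible p is 0.005. It was not among the planned tests. In this exact permutation test the ratio was called higher at 48 h for all 13, at p = 0.005 for 12 of them (0.00542 adjusted over 13 pairs) and at p = 0.015 for Sars to Sars2 (adjusted 0.015), and these 13 calls held without each of the 12 libraries in turn. In the all-gene fit, the change of the cytosolic gene exceeded that of its mitochondrial partner in 13 of 13 pairs in each genotype, by a median of 1.31 in WT and 1.42 in CKO.

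The ratio grew most for alanine. Aars to Aars2 was 3.17 to 3.71 in the WT 0 h libraries and 14.6 to 16.4 at 48 h, and 2.06 to 3.57 and then 12.7 to 14.3 in CKO, a 4.76-fold rise over both genotypes. For 2 amino acids the order of the counts turned over in every library. Tars was below Tars2 in every 0 h library (ratio 0.697 to 0.811 in WT, 0.706 to 0.744 in CKO) and above it in every 48 h library (2.19 to 2.68 and 2.1 to 2.32). Iars was below Iars2 at 0 h (0.877 to 0.914 in WT, 0.855 to 0.917 in CKO) and above it at 48 h (2.27 to 2.4 and 2.16 to 2.26). These ratios compare counts of mRNAs of different length, so only their change is a comparison of levels. The ratio rose 3.36-fold for tryptophan, 3.31-fold for cysteine, 2.80-fold for valine, 2.72-fold for histidine, 2.57-fold for leucine, 2.52-fold for methionine and 2.26-fold for tyrosine. The smallest rises were 1.43-fold for asparagine and for arginine, whose mitochondrial genes Nars2 and Rars2 also rose, and 1.31-fold for serine. For serine the ratio was 8.13 to 11.4 in CKO at 0 h and 10.8 to 13.5 at 48 h, so these libraries overlapped.

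**Figure D4:**
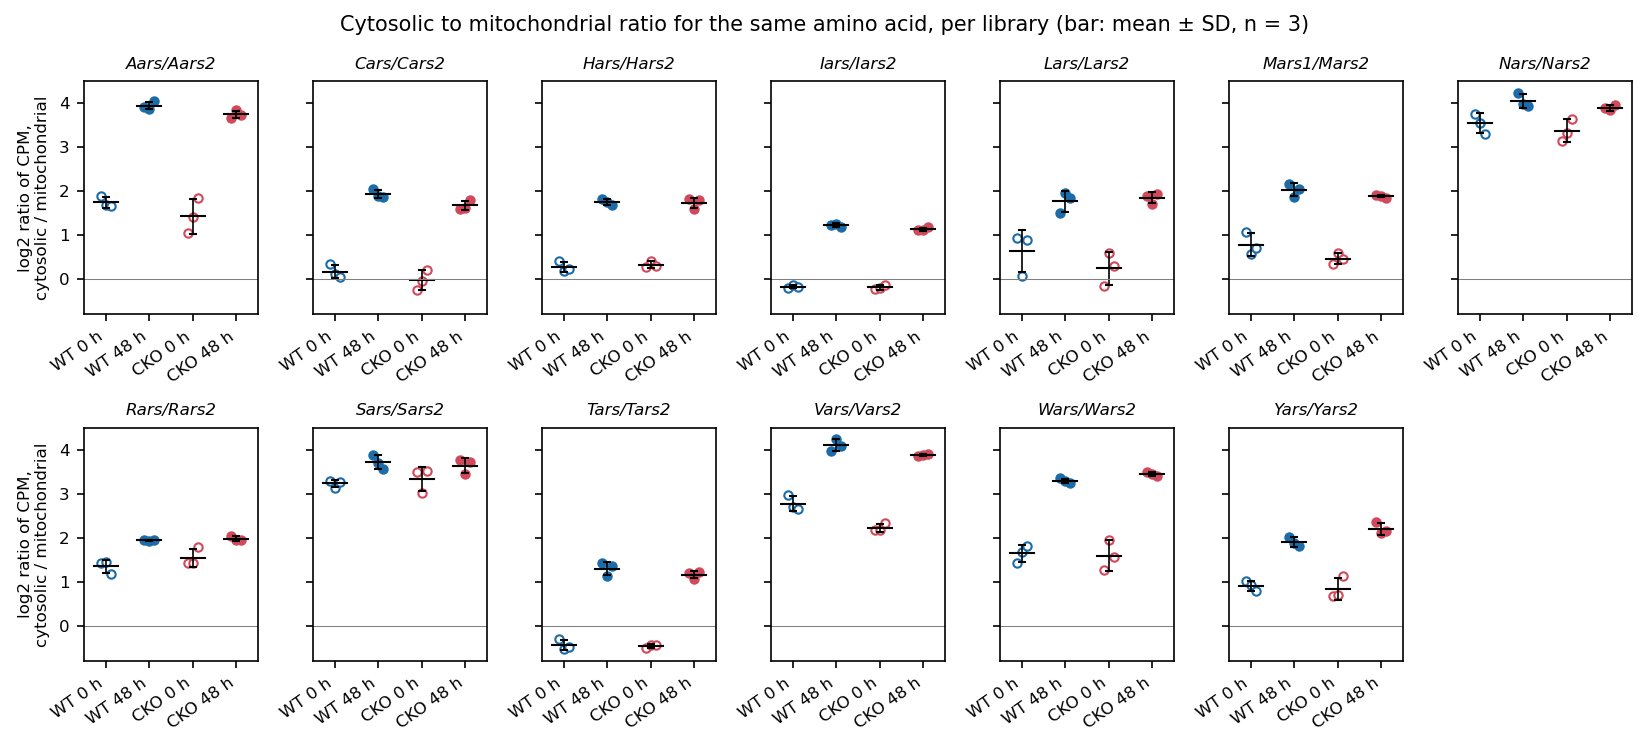
Log2 of the ratio of cytosolic to mitochondrial CPM for 13 amino acids, in each of the 12 libraries (points) with group mean and SD (bars, n = 3), open points at 0 h, filled points at 48 h, WT in blue and CKO in red. In all 13 panels the 48 h groups have the higher mean, and the serine panel (Sars/Sars2) is the one where single 0 h and 48 h libraries overlap, in CKO.

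Levels of different genes were compared per kilobase of the longest principal transcript. In WT at 0 h the cytosolic genes ran from 10.3 CPM per kb for Aars to 56.9 for Kars (median 28.5) and the mitochondrial genes from 2.58 for Pars2 to 34.2 for Tars2 (median 7.78), and 7 mitochondrial genes stood above the lowest cytosolic one. At 48 h the cytosolic genes ran from 36.8 CPM per kb for Cars to 180.6 for Kars (median 72.9), and the mitochondrial genes from 3.74 for Ears2 to 34.2 for Tars2 (median 8.9). No mitochondrial mean then stood above the lowest cytosolic mean, although Tars2 (34.2 ± 1.96, SD) and Cars (36.8 ± 2.29) differed by little more than their spread. In CKO at 48 h, Tars2 at 33.8 CPM per kb was the 1 mitochondrial gene above the lowest cytosolic one, Cars at 31.5. Aars had the lowest cytosolic mean per kilobase at 0 h in both genotypes and the largest change in each. In WT at 0 h, Aars (10.3 ± 0.60 CPM per kb, SD) and Cars (11.2 ± 1.38) differed by less than their spread. This rank rests on the length used, 5750 bases for Aars. By CPM, Aars at a mean of 59.15 was above Cars at 36.01 in WT at 0 h.

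The responses of the 2 genotypes were alike in size. Across the 36 genes the WT and CKO changes, which share no library, had a Pearson correlation of 0.978 and a Spearman correlation of 0.971, as a description over genes. Within the 20 cytosolic genes these were 0.958 and 0.938, and within the 16 mitochondrial genes 0.944 and 0.906. The median size of the difference between genotypes was 0.08 for the cytosolic genes (largest 0.28, Nars) and 0.16 for the mitochondrial genes (largest 0.48, Lars2). No member passed edgeR's test of the difference between the responses, against 1.38% of all tested genes. At an unadjusted p under 0.05 there were 0 higher and 2 lower, against 5.87% and 6.95% of all tested genes. These were Nars (-0.28 ± 0.10, edgeR adjusted p = 0.184) and Wars2 (-0.39 ± 0.17, edgeR adjusted p = 0.328). DESeq2 called 0 members and 3.02% of the genes to which it gave an adjusted p.

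Between genotypes at 0 h, 2 of 36 synthetase genes were called, against 7.48% of all tested genes: Aars was lower in CKO and Vars2 higher. Their values in every library are given above. The Aars difference was -0.38 ± 0.09 (edgeR adjusted p = 0.0101), with the CKO libraries at 38.1 to 51.2 CPM below the WT libraries at 56.6 to 63.1 CPM. The lowest of them, CKO replicate 1, decided the call, since without it the difference was -0.26 (edgeR adjusted p = 0.0566). The Vars2 difference was 0.38 ± 0.10 (edgeR adjusted p = 0.0219), with CKO at 25.6 to 30.3 CPM above WT at 21.2 to 23.0 CPM. It was between 0.33 and 0.36, and no longer called, without WT 0 h replicate 1 (edgeR adjusted p = 0.0723), WT 0 h replicate 3 (0.0742), CKO 0 h replicate 1 (0.104) or CKO 0 h replicate 2 (0.0632). DESeq2 also called 1 higher and 1 lower, against 5.31% and 4.42% of the genes to which it gave an adjusted p. At an unadjusted p under 0.05 there were 5 higher and 4 lower, against 10.7% and 10.5% of all tested genes.

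The libraries of both genotypes did not overlap at 0 h for 8 of the 36 genes, 4 higher in CKO and 4 lower, against 12% and 12.6% of all tested genes. The 4 higher were Cars2, Mars2, Nars2 and Vars2, all mitochondrial, with differences of 0.18 to 0.38. The 4 lower were Aars, Hars, Qars and Ears2, with differences of -0.38 to -0.08. Of these 8 only Aars and Vars2 passed the test. Over the 20 cytosolic genes the median difference was -0.05 and over the 16 mitochondrial genes 0.07. The B-cell markers differed in the same comparison, with all 15 lower in CKO by a median of 0.86 on the log2 scale and 1 called, and their part in these differences was not tested.

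At 48 h no member was called between genotypes by edgeR, against 4.54% of all tested genes. At an unadjusted p under 0.05, 1 was higher and 5 were lower, against 8.13% and 8.62% of all tested genes. DESeq2 called 1 higher and 1 lower, against 3.19% and 2.67% of the genes to which it gave an adjusted p, namely Yars (0.26, DESeq2 adjusted p = 0.0203) and Aars (-0.27, DESeq2 adjusted p = 0.0398). Yars was higher in all 3 CKO libraries, at 159 to 173 CPM against 132 to 149 CPM, with a difference of 0.25 ± 0.07 and an edgeR adjusted p of 0.0529. Aars was lower in all 3, at 200.5 to 213 CPM against 238 to 264 CPM, with -0.27 ± 0.08 and an edgeR adjusted p of 0.0559. Both therefore lay next to the threshold, and other settings put 1 or both past it. The sign was negative for 28 of 36 genes, against 51.5% of all tested genes, though the range was only -0.27 to 0.25 and the median over all genes was -0.01. In 8 genes every CKO library was lower and in 2 every CKO library was higher (Yars and Kars), against 12.2% and 11.5% of all tested genes. The 8 were Aars, Cars, Mars1, Nars, Sars, Tars, Vars and Wars2.

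**Figure D5:**
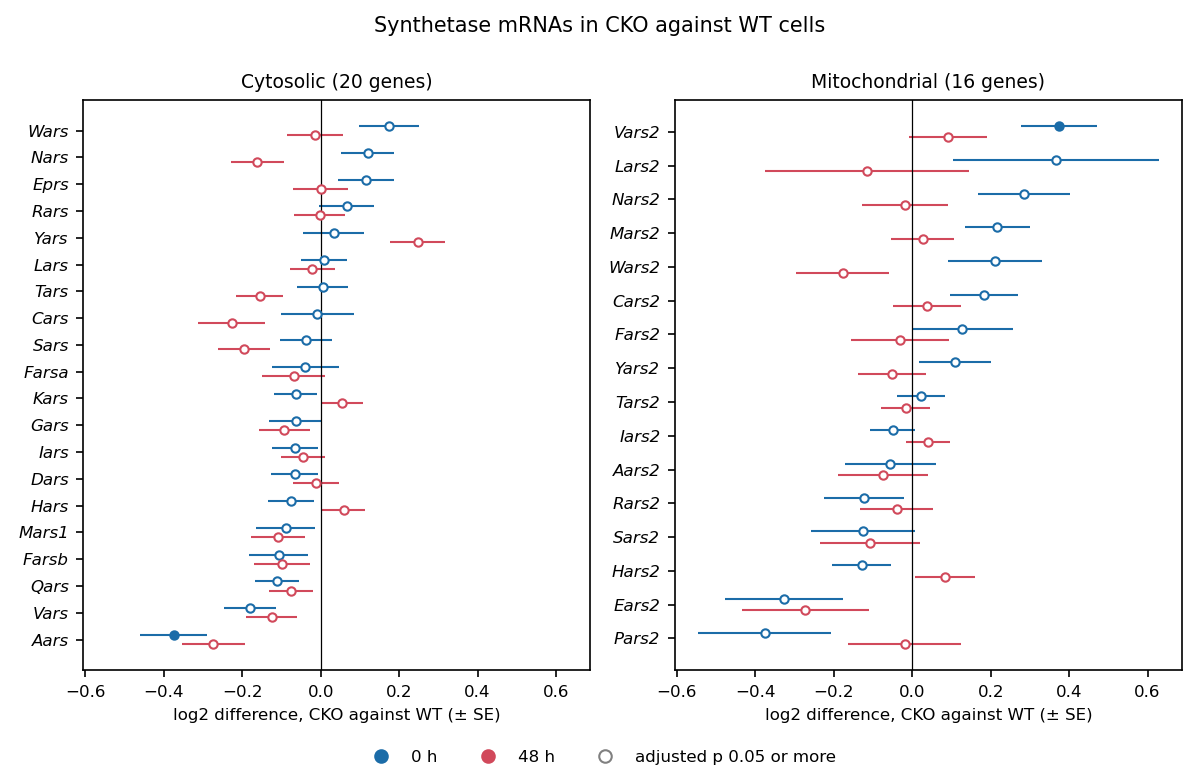
Difference between CKO and WT of each synthetase mRNA on the log2 scale (points, with SE bars), at 0 h in blue and at 48 h in red, for 20 cytosolic genes on the left and 16 mitochondrial genes on the right, with open points at an edgeR adjusted p of 0.05 or more. The filled points are Aars at -0.38 and Vars2 at 0.38, both at 0 h, and all differences lie between -0.38 and 0.38.

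Genes that act beside the synthetases were taken from lists of known function, and their counts can be read against all tested genes, of which 38.7% were called higher and 39.1% lower in WT (38.5% and 39.2% in CKO). The mitochondrion has no glutamine enzyme of its own. There, tRNA for glutamine is first loaded with glutamate by Ears2 and then converted by an amidotransferase made from Gatb, Gatc and Qrsl1. While Ears2 fell, the 3 amidotransferase genes rose: Gatb by 1.18 ± 0.14 in WT and 1.33 in CKO, Gatc by 1.33 ± 0.11 and 1.54, and Qrsl1 by 0.67 ± 0.12 and 0.59. Mtfmt, which formylates the initiator methionine tRNA of mitochondria, had a change of 0.03 ± 0.14 in WT (edgeR adjusted p = 0.848) and of 0.34 ± 0.14 in CKO (edgeR adjusted p = 0.0371). The CKO call was lost with DESeq2 (adjusted p = 0.0722), with median-of-ratios factors, library totals or the stricter filter (edgeR adjusted p 0.051 to 0.102) and without any 1 of the 6 CKO libraries (0.0606 to 0.0844). The difference between the responses did not pass the test (edgeR adjusted p = 0.571).

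Of 7 genes that clear wrongly loaded or stalled tRNA, 6 rose and 0 fell in each genotype, led by Dtd2 (2.01 ± 0.16 in WT, 1.80 in CKO), a deacylase that edits mischarged tRNA. Of 6 elongation factors that bring charged tRNA to the ribosome or recharge the carrier, 4 rose in each genotype, while 1 fell in WT and 2 in CKO, against 39.1% and 39.2% of all tested genes lower. The second in CKO was Eef1b2, an exchange factor of the cytosolic carrier, at -0.16 (edgeR adjusted p = 0.0491). Its call was lost with no count filter (edgeR adjusted p = 0.128) and without any 1 of the 6 CKO libraries (0.0603 to 0.225). The Eef1b2 call was also lost without WT 0 h replicate 1 (edgeR adjusted p = 0.0621) or 3 (0.0673) or WT 48 h replicate 3 (0.0657). The cytosolic carrier Eef1a1 fell by 0.97 ± 0.05 in WT and by 1.02 in CKO. The mitochondrial carrier Tufm rose by 2.11 ± 0.09 and 1.98, its exchange factor Tsfm by 1.80 ± 0.11 and 1.81, and Eef1g by 0.90 and 0.86. The cytosolic carrier thus fell in the same libraries in which the 20 cytosolic synthetases rose.

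Of 26 genes for the maturation and export of tRNA, 22 rose and 2 fell in each genotype, against 38.7% and 39.1% of all tested genes in WT (38.5% and 39.2% in CKO). The 4 with the smallest edgeR adjusted p in WT were Ddx1 (2.13 in WT, 2.05 in CKO) and Fam98b (1.73 and 1.43), both of the tRNA ligase complex, Pop1 (3.65 and 3.56), a subunit of the RNase P that trims the 5′ end, and Xpot (1.54 and 1.35), the tRNA exporter. At 0 h Xpot was higher in CKO by 0.24 ± 0.06 (edgeR adjusted p = 0.0185), a call that was lost without WT 0 h replicate 2 or 3 or CKO 0 h replicate 1 or 3 (edgeR adjusted p 0.0511 to 0.0706). Trnt1, which adds the CCA end to which the amino acid is attached, was lower in CKO at 0 h, at 85.3, 93.1 and 88.6 CPM against 122, 120.0 and 122.5 CPM in WT. The groups did not overlap, and the difference was -0.45 ± 0.06 (edgeR adjusted p = 7.61e-05). Of 21 genes of RNA polymerase III and its factors, which transcribe tRNA genes, 12 were called higher and 4 lower in WT, with 15 and 4 in CKO, beside the same shares of all tested genes. Gtf3c5 (1.85 in WT), Polr3k (1.83) and Gtf3c4 (1.59) rose, while the initiation factor gene Brf1 fell by 1.78 ± 0.07 in WT and by 1.69 in CKO. At 0 h Polr3e was lower in CKO (-0.34, edgeR adjusted p = 0.00935), and no longer called without CKO 0 h replicate 3 (edgeR adjusted p = 0.0555). Polr3c was at -0.22 (edgeR adjusted p = 0.0487), a call lost with a replicate block (0.0567), with library totals (0.0682), with no count filter (0.0912), with only the groups compared (0.0787) and without any 1 of the 6 libraries at 0 h (0.052 to 0.131). The Polr3c call was also lost without WT 48 h replicate 2 or 3 or any 1 CKO 48 h library (edgeR adjusted p 0.0648 to 0.0796). Without both WT libraries numbered 1 it was lost as well (0.0781).

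Of 21 genes of the amino acid response, a list that includes known ATF4 targets, 18 were called higher and 0 lower in WT, with 18 and 2 in CKO. The shares of all tested genes were 38.7% and 39.1% in WT and 38.5% and 39.2% in CKO. Atf4 stood at 260, 217 and 244 CPM at 0 h and 548, 447.5 and 458 CPM at 48 h in WT, and at 253, 243 and 250.1 CPM and then 426, 406 and 424 CPM in CKO. The times did not overlap, and its mRNA changed by 1.01 ± 0.08 in WT and 0.75 ± 0.08 in CKO. Eif2ak4, the gene of the kinase that senses uncharged tRNA, rose by 0.42 ± 0.10 and 0.59 ± 0.10. Psat1 (3.82 in WT, 3.63 in CKO) and Phgdh (2.38 and 2.05), both of serine synthesis, Mthfd2 (3.33 and 3.26), of mitochondrial folate metabolism, and Sesn2 (2.34 and 2.59), a sensor of leucine, rose with the smallest edgeR adjusted p in WT. No gene of this list was called between genotypes at 48 h by edgeR. There 0 were higher and 8 lower at an unadjusted p under 0.05, against 8.13% and 8.62% of all tested genes. DESeq2 called 0 higher and 2 lower (Psat1 and Pycr1), against 3.19% and 2.67% of the genes to which it gave an adjusted p. With no count filter edgeR called Atf4, Psat1, Phgdh, Mthfd2, Trib3, Slc7a5, Ddit3 and Pycr1 lower in CKO at 48 h. That setting tested 30285 genes, and the number of all genes it called is given with the processing results below. For the difference between responses, 0 were higher and 8 lower at an unadjusted p under 0.05, against 5.87% and 6.95% of all tested genes. At 0 h 2 were higher in CKO, Slc3a2 (0.44 ± 0.08, edgeR adjusted p = 0.000755), the partner chain of several amino acid transporters, and Ddit3 (0.65 ± 0.16, edgeR adjusted p = 0.024), a stress-response transcription factor gene whose exons share 68 bases with Mars1 on the other strand. The Ddit3 call was lost without WT 0 h replicate 2 or 3 or CKO 0 h replicate 1 or 3 (edgeR adjusted p 0.0814 to 0.104). The count table held 2 gene IDs for Ddit3, and all Ddit3 values given here are those of the first. The other ID was not examined.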

How the data were processed

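RNA from 12 libraries was measured with TruSeq Stranded mRNA kits after TRIzol extraction, per the labels' protocols. The authors deposited raw, unscaled counts per Ensembl gene. The submitters' processing notes name the build GRCm39 and the tools HISAT2 2.2.1, cutadapt and DESeq2, without their roles. The counting program, strand setting and annotation are not stated in the sources at hand. Symbols, transcript lengths and exon overlaps came from GENCODE M21 (GRCm38), by gene ID only, and promoter sequences from RefSeq (GRCm38.p6).

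Counts were scaled with TMM, filtered with filterByExpr and fitted with edgeR 4.0.16 in R 4.3.3 (robust quasi-likelihood, 1 mean per group, 12 libraries, 8 residual degrees of freedom), with two-sided p-values adjusted by Benjamini-Hochberg over 15935 genes. The common biological coefficient of variation was 0.0999. The fit was tested on simulated data. Alternatives were DESeq2 1.42.0, median-of-ratios size factors, library totals, no filter, at least 1 CPM in 6 libraries, only the groups compared, a replicate block, and leaving out libraries. The permutation test of the ratios was not among the planned tests, which held only a description of cytosolic against mitochondrial members. Leave-one-out of the ratios was added after seeing the data. The genes and lists were chosen with earlier results of these data known. All 36 members are named, with every gene of 2 short lists, and from other lists the 4 smallest adjusted p in WT activation and any called between genotypes. 1 promoter match is not reported here.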

Additional observations from a re-analysis of the deposited data

Results flagged for a closer look

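The difference between the CKO and WT responses to stimulation passed edgeR's test for 4 of the genes described here, none of them a synthetase. Senp1 rose by 0.97 in WT and 0.30 in CKO, a log2 difference of -0.669 with an SE of 0.098 (edgeR adjusted p = 0.000926). Slc3a2 went from 226, 188 and 203 CPM to 203, 167 and 185 CPM in WT and from 286.5, 266 and 286 CPM to 181, 167 and 168 CPM in CKO, a difference of -0.551 (edgeR adjusted p = 0.0102). Ddit3 went from 22.5, 17.4 and 20 CPM to 23.9, 14.8 and 17.9 CPM in WT and from 36.1, 25.0 and 33.0 CPM to 15.2, 12.7 and 14.0 CPM in CKO, a difference of -1.085 (edgeR adjusted p = 0.0327). Trnt1 rose by 0.58 in WT and 0.96 in CKO, a difference of 0.379 (edgeR adjusted p = 0.0267). In Slc3a2, Ddit3 and Trnt1 the genotypes were apart at 0 h and overlapped at 48 h. The Trnt1 call was lost without any of 7 single libraries (edgeR adjusted p = 0.0522 to 0.13) and the Ddit3 call without any of 8 (0.0522 to 0.094), while those of Slc3a2 and Senp1 were kept under the 20 alternatives that gave a value.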

How the results depend on the processing

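No result changed its direction while called. The counts of cytosolic genes higher, mitochondrial genes higher and WT mitochondrial genes lower stayed within 1.5 times of those given under all 21 alternatives. In CKO, 4 mitochondrial genes in place of 2 were lower with median-of-ratios size factors, library totals, at least 1 CPM in 6 libraries or only the groups compared, the additions being Hars2 and Cars2. At 0 h between genotypes, 0 to 2 members were called when single libraries were left out, with 0 without CKO replicate 1 and 1 without WT replicate 1. Without WT 0 h replicate 3, Vars2 was no longer called and Vars was called lower in CKO (-0.25, edgeR adjusted p = 0.0369). Without CKO 0 h replicate 2, Vars2 was no longer called and Pars2 was called lower in CKO (-0.58, edgeR adjusted p = 0.0444). Of all genes, 689 to 1585 were called in place of 1192. At 48 h between genotypes, where 0 were called, 1 was called with median-of-ratios size factors, library totals, the stricter filter or without both WT libraries numbered 1 (Yars each time), 2 with DESeq2 or only the groups compared (Yars and Aars), 4 with no count filter (Yars, Aars, Cars and Sars), and 0 to 2 when single libraries were left out. The count over all genes at 48 h was 724 of 15935, and 1204 of the 30285 genes tested with no count filter, or 345 to 787 when single libraries were left out. For the difference between responses it was 220, and 576 with no count filter, 368 without both WT libraries numbered 1, 417 with DESeq2 and 115 to 330 when single libraries were left out. The causes were not tested.

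The replicate numbers were not taken to pair libraries, as the sources used here state no pairing. For each library the log2 levels were taken as deviations from the mean of its group. These deviations correlated at 0.0424 to 0.162 between same-numbered libraries of a genotype. Within genotype, 12 of 12 libraries correlated best with the one of their own number. Whether the numbers mark pairs is thus not settled, and a replicate block was fitted as an alternative. With a replicate block 12420 and 12388 genes were called for activation in WT and CKO, 1313 and 848 between genotypes and 281 for the difference between responses, and with the block within genotype 350 for the last. The block changed no call of a member, and of the pathway genes it ended the call of Polr3c at 0 h (edgeR adjusted p = 0.0567). The replicate block also added calls of pathway genes. At 48 h Psat1 (-0.25, edgeR adjusted p = 0.0441) and Ddit3 (-0.42, 0.0264) were lower in CKO. With stimulation Slc3a2 was lower (-0.15, edgeR adjusted p = 0.0254) and Atf3 higher (1.13, 0.00972) in WT, and Slc7a11 was higher in CKO (0.52, 0.0465). Low counts limited Pars2 most, with 62 in 1 library.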
